A study of Mus musculus with 8 samples.

Results

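The genes described here are the transcription factor gene Myc and 45 factors that build ribosomes in the nucleolus, 46 genes in all among 24421 gene symbols. They were taken by symbol from a list of named factors; the rule sets no threshold on measured values, but the list was drawn up with earlier results of these data known, so the share of it that rose is a description. All 46 passed the filter on low counts, among 11519 genes that did. Their levels were compared between cultured macrophages grown from mouse bone marrow (BMDM), all after 24 h with interleukin 4 (IL-4). The CKO group (4 libraries, replicates 2, 6, 7 and 8) carried the genotype OPA1f/f; Lyz2-Cre, in which Cre recombinase is made from the myeloid Lyz2 locus and acts on a loxP-flanked Opa1 gene, whose protein shapes and fuses inner mitochondrial membranes. The FLOX group (4 libraries, replicates 3, 4, 6 and 7) was OPA1f/f without Cre, so both groups share the flanked allele and the IL-4 treatment and no unstimulated culture was compared. The labels give no age, strain or sex and do not say whether libraries of a group came from separate mice, so p-values measure the spread between these libraries, which may be technical. Effects of the Opa1 deletion cannot be told apart from those of carrying Cre.

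MYC is a transcription factor that pairs with MAX, binds the E-box sequence and raises transcription of genes for growth, with ribosome production among its best known outputs. Ribosomes are made in the nucleolus, where RNA polymerase I (Pol I) transcribes a long ribosomal RNA precursor. Small nucleolar ribonucleoproteins (snoRNPs) then guide its chemical modification, and large sets of assembly factors fold, cut and export the small and the large subunit. Dividing cells need this machinery more than resting ones, and macrophages of this kind divide in culture while growth factor is present.

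Read pairs assigned to genes numbered 11764855 to 18939948 per library, and single members had 135 to 13212 counts in a library. Levels are given as CPM, a gene's count relative to the TMM-scaled total of its library. Opa1, counted over the whole gene so that a transcript without the flanked exons still counts, averaged 100.1 ± 4.42 CPM in the CKO libraries against 114 ± 11.6 in FLOX (± SD, n = 4 libraries a group) and was not called (edgeR log2 difference -0.19 with SE 0.07, adjusted p = 0.0544). Over 19 alternatives its edgeR, DESeq2 or limma adjusted p ran from 0.00139 to 0.389. Lyz2, which carries the Cre insertion, was at 27.3% of FLOX in CKO, with no overlap between groups. The macrophage genes Adgre1 (1170.2 and 1167 CPM) and Csf1r (1737 and 2327 CPM) were abundant in both groups. Of 10 islet markers, listed because the extraction protocol speaks of islets, 9 had 0 counts in every library.

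Most of the ribosome-building genes were higher in CKO. Of the 46 members 38 rose and none fell in edgeR's quasi-likelihood test at an adjusted p of 0.05, where 23.8% of all tested genes rose and 21.6% fell. For the same 38 the lowest CKO library lay above the highest FLOX library, against 22.7% of all tested genes. At an unadjusted p below 0.05 in edgeR 41 were higher and 0 lower, and DESeq2 called 38 higher and 0 lower. The median log2 fold change of the members was 0.43, beside -0.02 over all tested genes. The rises were mostly modest. They exceeded 1.5-fold in 15 members (32.6%) and 2-fold in 3, or 6.52% (Myc, Dkc1 and Nop58), while 10.6% and 4.67% of all tested genes were higher by that much. The CPM of all members summed to 3527 to 4088 in CKO and 2802 to 2990.1 in FLOX. In bulk RNA, more cells of a kind and more RNA per cell cannot be told apart.

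**Figure D1:**
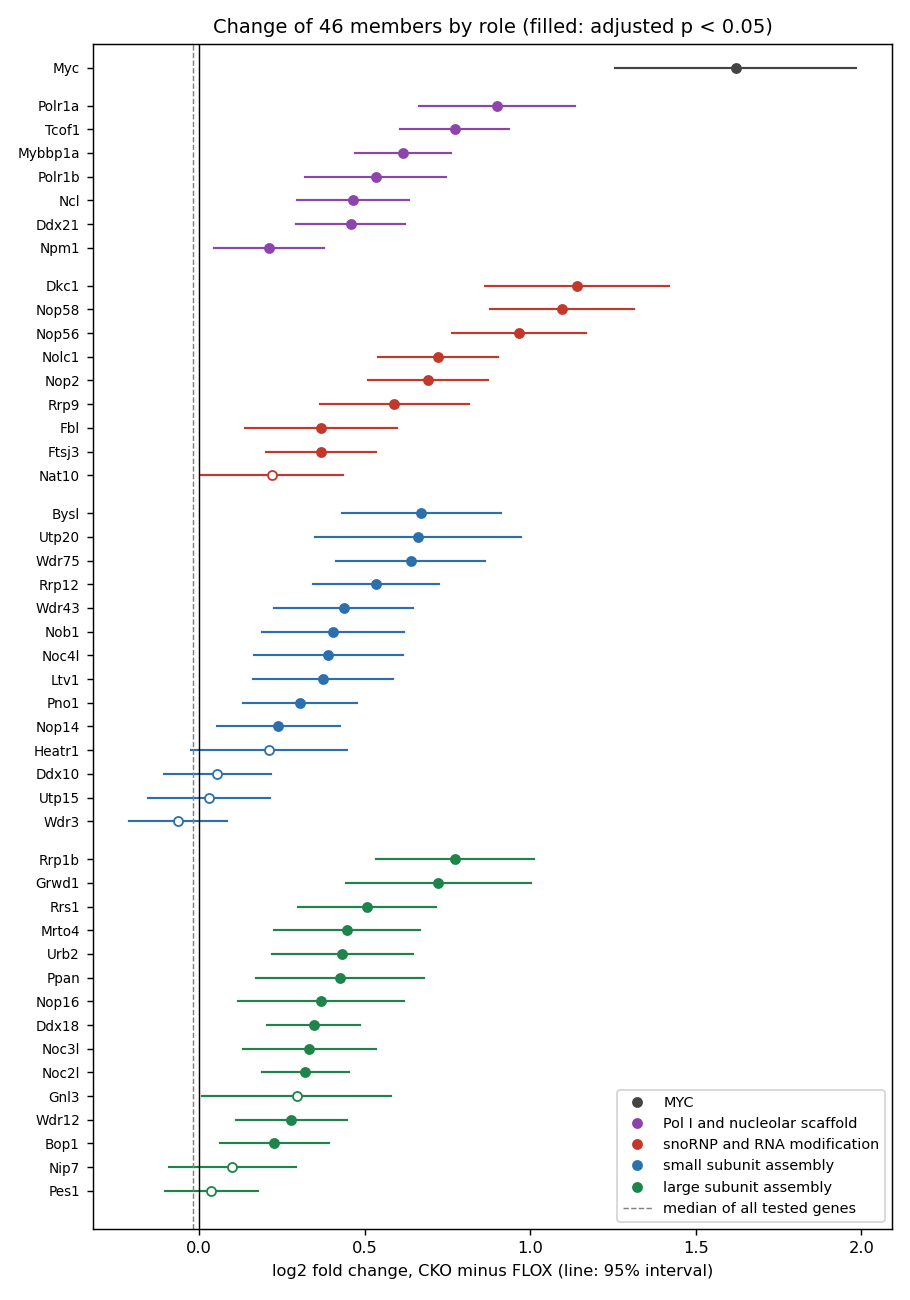
Log2 fold change (CKO minus FLOX) of each of the 46 members with its 95% interval, grouped by role; filled points were called at 0.05 after adjustment and the dashed line is the median of all tested genes. Myc lies farthest right at 1.62, and the 8 open points are the members that were not called.

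Myc (ENSMUSG00000022346, chromosome 15, 61985391 to 61990374, mm10) showed the largest rise of the members. Its level was 30.5, 41.3, 45.9 and 49.7 CPM in CKO replicates 2, 6, 7 and 8 and 16.6, 12.5, 11.9 and 13.7 CPM in FLOX replicates 3, 4, 6 and 7. Every CKO library lay above every FLOX library, and CKO replicate 2 was the lowest of its group. The means were 41.8 ± 8.31 and 13.7 ± 2.09 CPM (± SD over 4 libraries), and the rise was 3.07-fold, 95% interval 2.39 to 3.96 (edgeR log2 difference 1.62 with SE 0.15, adjusted p = 5.51e-06). Other genes of the MYC network moved unevenly: of 18 tested, Myc included, 5 rose (27.8%) and 8 fell (44.4%), with a median of -0.16. Of all tested genes 23.8% rose and 21.6% fell. Among those that fell were Fbxw7 (-0.75), the ubiquitin ligase subunit that marks MYC for degradation, and the MAX partners Mnt (-0.49) and Mxd4 (-0.84), which repress E-box genes. Max itself, the shared partner, fell by 0.24 on the log2 scale. Mxd3, of the same MXD family as Mxd4, went the other way. It averaged 2.78 ± 0.834 CPM in FLOX and rose to 5.85 ± 0.774 CPM (edgeR log2 difference 1.05 with SE 0.19, adjusted p = 0.000625). Wdr5, a chromatin adaptor that binds MYC, rose by 0.26, a call that ended with the replicate block (edgeR adjusted p = 0.0864, in a range from 0.000454). The block adds a term for each replicate number. Its CKO effect therefore rests only on replicates 6 and 7, the numbers found in both groups. A call that ends with the block may do so because fewer libraries inform it. Mycn and Mycl were too low to test. With library totals and no scaling factors 5 genes of this list fell, and likewise with the replicate block.

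The core of the E-box, CACGTG, reads the same on both strands and was looked for in the promoters of the members, since MYC binds it. RefSeq promoter windows (GRCm38.p6, the same assembly as mm10; 250 bases before to 50 bases after an annotated start) were matched by symbol for 39 of the 46 members. Those not matched were Myc, Tcof1, Npm1, Fbl, Rrp12, Rrs1 and Bop1. The core was found in 8 of the 39 (20.5%), beside 12.1% of 9308 tested genes with a window and 8.09% of all 27025 genes in the table. Among genes with a match, it lay within 50 bases after the start in 7 of the 8 members and in 176 of 1127 tested genes. That split was made after the positions were seen. The sites are shown because CACGTG is the sequence MYC is known to bind; each line gives 30 bases read 5′ to 3′ on the gene's strand, with the core in capitals.
Nop2, chr6:125131811-125131840, plus strand: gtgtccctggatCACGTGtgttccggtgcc
Pes1, chr11:3963965-3963994, plus strand: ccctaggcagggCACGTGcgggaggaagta
Wdr43, chr17:71616220-71616249, plus strand: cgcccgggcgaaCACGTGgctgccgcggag
Ltv1, chr10:13193092-13193121, minus strand: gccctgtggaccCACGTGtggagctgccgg
Grwd1, chr7:45830740-45830769, minus strand: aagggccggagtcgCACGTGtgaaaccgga
Utp20, chr10:88826765-88826794, minus strand: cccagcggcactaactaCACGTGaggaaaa
Pno1, chr11:17211540-17211569, minus strand: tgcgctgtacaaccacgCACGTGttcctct
Mybbp1a, chr11:72441347-72441376, plus strand: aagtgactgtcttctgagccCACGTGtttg
The core begins 60 bases before the start in Nop2, outside the GENCODE gene. After the start it begins at base 3 in Pes1, 18 in Wdr43, 29 in Ltv1, 38 in Utp20, 38 in Pno1 and 41 in Mybbp1a, all within an annotated 5′ UTR, and at base 35 in Grwd1, within an exon that GENCODE marks as coding. Of these genes 7 rose in CKO, from 0.31 (Pno1) to 0.72 (Grwd1) on the log2 scale, and Pes1 was not called (0.04). The members with the largest rises after Myc, namely Dkc1, Nop58 and Nop56, hold no CACGTG in their windows. Other motifs were searched on both strands in the same windows. The variant core CACGCG was present in 11 of 39 members (28.2%) and 20.5% of tested genes, the ETS motif CCGGAAG in 12 (30.8%) and 21.5%, and the palindromic BANP motif in 0 of 39 and 1.24%. A match describes letters only, and no binding was measured.

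All 7 members that serve Pol I transcription or scaffold the nucleolus rose, with a median of 0.53 and a range of 0.21 to 0.90. Tcof1 (ENSMUSG00000024613, chromosome 18, 60813755 to 60848971, mm10) encodes treacle, a nucleolar protein needed for Pol I activity. It stood at 148, 159, 153 and 155 CPM in CKO replicates 2, 6, 7 and 8 and 86.9, 85.3, 102 and 86.1 CPM in FLOX replicates 3, 4, 6 and 7, so that the groups lay far apart although FLOX replicate 6 was above the rest of FLOX (edgeR log2 difference 0.77 with SE 0.07, adjusted p = 2.76e-06). Mybbp1a (ENSMUSG00000040463, chromosome 11, 72441355 to 72451768, mm10), a nucleolar regulator of ribosomal RNA synthesis, was at 138, 156, 153 and 156 CPM in CKO replicates 2, 6, 7 and 8 and 97.2, 97.5, 103 and 95.8 CPM in FLOX replicates 3, 4, 6 and 7. Its groups did not overlap either (edgeR log2 difference 0.61 with SE 0.06, adjusted p = 5.66e-06), though its exons share bases with Spns2 on the other strand. Polr1a (ENSMUSG00000049553, chromosome 6, 71909053 to 71984935, mm10), the largest catalytic subunit of Pol I, was at 41.5, 54.3, 52.4 and 52.7 CPM in CKO replicates 2, 6, 7 and 8 and 23.5, 27.2, 27.5 and 29.6 CPM in FLOX replicates 3, 4, 6 and 7. CKO replicate 2 stood below the other CKO libraries and still above all of FLOX (edgeR log2 difference 0.90 with SE 0.10, adjusted p = 1.19e-05). The second large subunit, Polr1b, rose by 0.53 and the RNA helicase gene Ddx21 by 0.46. Nucleolin (Ncl), a histone and RNA chaperone, rose by 0.46, from 554 ± 16.1 to 764 ± 64.6 CPM (± SD). Nucleophosmin (Npm1) had the smallest rise of the group, 0.21 (edgeR adjusted p = 0.0226), and that call ended without FLOX replicate 4 (edgeR adjusted p = 0.0534) or FLOX replicate 7 (edgeR adjusted p = 0.0568). Its adjusted p ran from 0.000701 to 0.0924 over the edgeR, DESeq2 and limma alternatives, and Npm1 has near-identical processed copies whose pairs the counting may split.

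**Figure D2:**
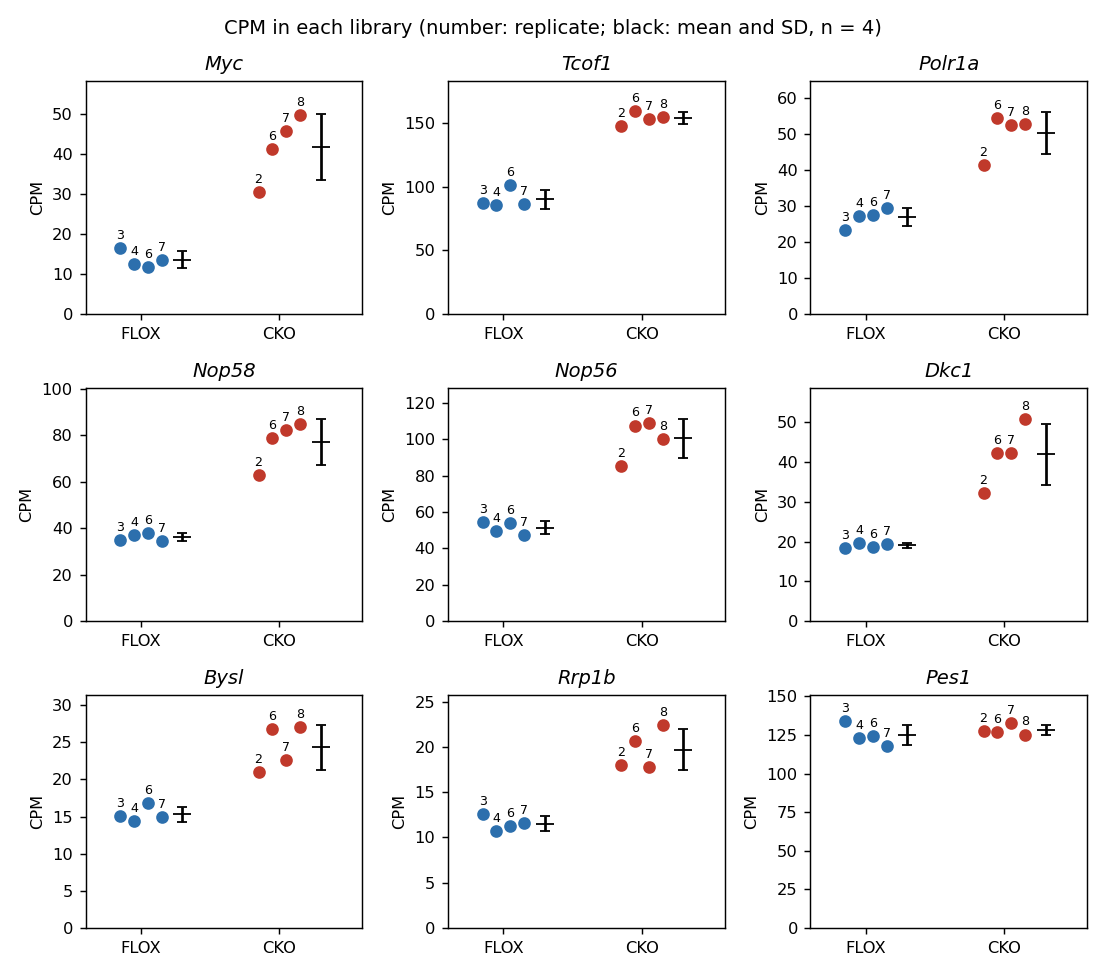
CPM of 9 members in each library, with the replicate number above each point and the mean ± SD (n = 4) in black; each axis starts at 0. The CKO points lie above all FLOX points except for Pes1, and CKO replicate 2 is the lowest CKO library for Myc, Tcof1, Polr1a, Nop58, Nop56, Dkc1 and Bysl.

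The snoRNP proteins and RNA-modifying enzymes held the 3 largest rises after Myc. Of 9 members 8 rose (median 0.69). Nop58 (ENSMUSG00000026020, chromosome 1, 59684971 to 59719044, mm10), a core protein of the box C/D snoRNPs that guide methylation of ribosomal RNA, was at 62.9, 78.8, 82.1 and 84.8 CPM in CKO replicates 2, 6, 7 and 8 and 35.1, 36.99, 38.1 and 34.4 CPM in FLOX replicates 3, 4, 6 and 7. Its CKO libraries were all higher, by 2.14-fold, 95% interval 1.84 to 2.49 (edgeR log2 difference 1.10 with SE 0.09, adjusted p = 1.8e-06). Its paralogue and partner Nop56 (ENSMUSG00000027405, chromosome 2, 130274430 to 130279313, mm10) was at 85.6, 108, 109 and 100.1 CPM in CKO replicates 2, 6, 7 and 8 and 54.6, 49.8, 53.99 and 47.6 CPM in FLOX replicates 3, 4, 6 and 7. The groups were again apart (edgeR log2 difference 0.97 with SE 0.08, adjusted p = 2.41e-06), though Nop56 shares exon bases with Idh3b on the other strand. Dkc1 (ENSMUSG00000031403, chromosome X, 75095854 to 75109777, mm10), the pseudouridine synthase dyskerin of the box H/ACA snoRNPs, was at 32.3, 42.3, 42.3 and 50.7 CPM in CKO replicates 2, 6, 7 and 8 and 18.4, 19.7, 18.6 and 19.4 CPM in FLOX replicates 3, 4, 6 and 7. FLOX was tight and CKO spread from replicate 2 at the bottom to replicate 8 at the top (edgeR log2 difference 1.14 with SE 0.11, adjusted p = 7.22e-06); Dkc1 shares exon bases with Mpp1 on the other strand. Nolc1, a chaperone of snoRNP assembly, rose by 0.72, the ribosomal RNA methyltransferase gene Nop2 by 0.69 and Rrp9, of the U3 snoRNP, by 0.59. The methyltransferase genes Ftsj3 and Fbl (fibrillarin) rose by 0.37 each. The acetyltransferase gene Nat10 was not called (edgeR log2 difference 0.22 with SE 0.09, adjusted p = 0.0606).

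Of 14 factors of small-subunit assembly 10 rose and 4 were not called (median 0.38). Wdr75 (ENSMUSG00000025995, chromosome 1, 45795166 to 45823619, mm10), of the complex that binds the nascent precursor first, was at 30.9, 39.4, 40.4 and 38.6 CPM in CKO replicates 2, 6, 7 and 8 and 26.01, 21.9, 23.1 and 25.1 CPM in FLOX replicates 3, 4, 6 and 7 (edgeR log2 difference 0.64 with SE 0.09, adjusted p = 0.000132). Rrp12 (ENSMUSG00000035049, chromosome 19, 41862851 to 41896173, mm10), which acts in maturation and export, was at 24.8, 27.02, 28.3 and 26.8 CPM in CKO replicates 2, 6, 7 and 8 and 16.9, 17.9, 19.9 and 19.2 CPM in FLOX replicates 3, 4, 6 and 7 (edgeR log2 difference 0.53 with SE 0.08, adjusted p = 0.000138). Bysl (ENSMUSG00000023988, chromosome 17, 47599331 to 47611492, mm10), which encodes bystin of late nucleolar and cytoplasmic maturation, was at 20.95, 26.8, 22.6 and 27.02 CPM in CKO replicates 2, 6, 7 and 8 and 15.1, 14.4, 16.8 and 14.9 CPM in FLOX replicates 3, 4, 6 and 7 (edgeR log2 difference 0.67 with SE 0.10, adjusted p = 0.000143). In these 3 genes every CKO library was above every FLOX library. Bysl shares exon bases with Ccnd3 on the other strand, and how pairs from those bases were counted is not known. Utp20 rose by 0.66, Wdr43 by 0.44, Nob1, the endonuclease that makes the final cut of small-subunit ribosomal RNA, by 0.40, and its partner Pno1 by 0.31. Noc4l (0.39), Ltv1 (0.37) and Nop14 (0.24) also rose. The call of Nop14 ended without CKO replicate 7 (edgeR adjusted p = 0.0575), without FLOX replicate 4 (edgeR adjusted p = 0.0614) and with the replicate block (edgeR adjusted p = 0.141), with a range of 0.00389 to 0.141 over all alternatives.

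Of 15 factors of large-subunit assembly 12 rose and 3 were not called (median 0.35). Rrp1b (ENSMUSG00000058392, chromosome 17, 32036100 to 32062865, mm10), a nucleolar protein of large-subunit processing, was at 18.02, 20.6, 17.8 and 22.4 CPM in CKO replicates 2, 6, 7 and 8 and 12.6, 10.7, 11.2 and 11.6 CPM in FLOX replicates 3, 4, 6 and 7 (edgeR log2 difference 0.77 with SE 0.10, adjusted p = 4.68e-05). Grwd1 (ENSMUSG00000053801, chromosome 7, 45825223 to 45830944, mm10), a chaperone of a large-subunit protein, was at 16.5, 21.9, 20.2 and 20.4 CPM in CKO replicates 2, 6, 7 and 8 and 12.97, 10.2, 13.7 and 10.9 CPM in FLOX replicates 3, 4, 6 and 7 (edgeR log2 difference 0.72 with SE 0.11, adjusted p = 0.000256). Ddx18 (ENSMUSG00000001674, chromosome 1, 121553835 to 121567989, mm10), an RNA helicase, was at 56.1, 57.5, 59.98 and 58.1 CPM in CKO replicates 2, 6, 7 and 8 and 47.7, 43.6, 45.2 and 45.8 CPM in FLOX replicates 3, 4, 6 and 7 (edgeR log2 difference 0.35 with SE 0.06, adjusted p = 0.000364). The groups did not overlap in any of them, and Rrp1b shares exon bases with Hsf2bp on the other strand. Rrs1 rose by 0.51, Mrto4, which prepares the ribosomal stalk, by 0.45, Urb2 by 0.43, Ppan by 0.43 and Nop16 by 0.37. Noc3l and Noc2l rose by 0.33 and 0.32. Of the complex that Pes1, Bop1 and Wdr12 form, Wdr12 rose by 0.28 and Bop1 by 0.23. The Bop1 call ended with the replicate block (edgeR adjusted p = 0.159, the highest over all alternatives, where the lowest was 0.00108). Bop1 shares exon bases with Mroh1, and Noc2l with Samd11, on the other strand.

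The 8 members that were not called were of 2 kinds, 5 with estimates near 1-fold and 3 with larger ones. Pes1 was 1.03-fold (95% interval 0.930 to 1.13, edgeR adjusted p = 0.635), with CKO libraries between 125 and 133 CPM inside the FLOX range. The small-subunit factors Utp15 and Ddx10 were 1.02-fold (95% interval 0.898 to 1.16, edgeR adjusted p = 0.774) and 1.04-fold (95% interval 0.929 to 1.16, edgeR adjusted p = 0.528). Wdr3, also of the small-subunit processome, was the only member with a mean below FLOX, at 0.957-fold (95% interval 0.863 to 1.06, edgeR adjusted p = 0.414). Nip7, of large-subunit maturation, was 1.07-fold (95% interval 0.939 to 1.22, edgeR adjusted p = 0.322). For these 5 the upper bound of the interval stayed below the 1.35-fold that matches the members' median. Nat10, Gnl3 and Heatr1 had the larger estimates. Gnl3 (nucleostemin) was 1.23-fold (95% interval 1.01 to 1.49, edgeR adjusted p = 0.0574) and Heatr1, a small-subunit factor also needed for Pol I transcription, 1.16-fold (95% interval 0.983 to 1.36, edgeR adjusted p = 0.0929). All 3 were called without CKO replicate 2 (edgeR adjusted p = 0.00346 for Nat10, 0.0048 for Gnl3 and 0.0416 for Heatr1), and Gnl3 and Heatr1 also without FLOX replicate 4 (edgeR adjusted p = 0.0171 and 0.0306). Over all alternatives the adjusted p ran from 0.00346 to 0.158 for Nat10, 0.00023 to 0.231 for Gnl3 and 0.000595 to 0.632 for Heatr1 in edgeR, DESeq2 or limma. Pes1, Wdr3 and Gnl3 share exon bases with genes on the other strand (4930556J24Rik; Gdap2 and Spag17; Pbrm1).

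In several complexes partners differed in how far they rose. The log2 ratio of the CPM of a pair of genes was taken in each library, which needs no scaling between libraries; the pairs were chosen after their values were seen and carry no test. In the box C/D core, the ratio of Nop58 to Fbl went from -0.81 ± 0.21 in FLOX to -0.10 ± 0.13 in CKO (± SD over 4 libraries) and that of Nop56 to Fbl from -0.30 ± 0.12 in FLOX to 0.28 ± 0.09 in CKO, with no overlap between groups. Nop58 and Nop56 stayed closer to each other, with a ratio from -0.51 ± 0.09 in FLOX to -0.39 ± 0.10 in CKO and overlapping ranges. In the box H/ACA core, Dkc1 gained on Nhp2 (from -0.91 ± 0.30 in FLOX to -0.32 ± 0.22 in CKO), while the ratio of Dkc1 to Gar1 overlapped between groups (difference 0.33). In Pol I, Polr1a gained on Polr1b by 0.37 and on Polr1c, a subunit shared with Pol III, by 0.86 on the log2 scale. Polr1c itself was at 32.6 ± 1.38 and 31.9 ± 2.76 CPM (edgeR log2 difference 0.03 with SE 0.07, adjusted p = 0.773). Wdr12 and Bop1 gained on their partner Pes1 by 0.24 and 0.19.

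**Figure D3:**
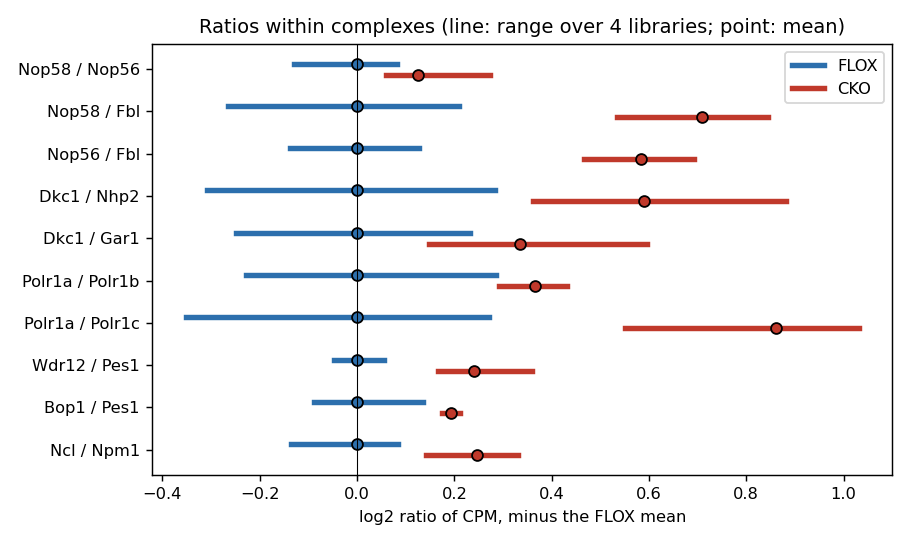
Log2 ratio of the CPM of 2 genes of a complex in each group, set against the FLOX mean; lines span the 4 libraries of a group and points are means. The ranges are apart for 8 of the 10 pairs and overlap for Nop58 with Nop56 and for Dkc1 with Gar1.

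CKO replicate 2 stood low across the members. It was the lowest CKO library for 41 of the 46 members, or 89.1%, beside 58.9% of the 2739 genes that rose and 33.5% of all tested genes, where an even spread gives 25%. It had the fewest assigned pairs, and its members summed to 3527 CPM, below the 4000.3, 4026 and 4088 CPM of replicates 6, 8 and 7. Without it 41 members rose, with a median log2 fold change of 0.48. In FLOX, replicate 3 was the highest library for 21 members (45.7%) and replicate 7 for 3, though the FLOX sums spanned only 2802 to 2990.1 CPM. FLOX replicate 3 was the highest for 20.2% of the genes that rose and 32.5% of all tested genes. Without CKO replicate 2 and FLOX replicate 6 together 40 members rose. Per kilobase of principal transcript, averaged over the 8 libraries, Npm1 was the most abundant at 348 CPM per kb, followed by Ncl (80.3) and Fbl (61.2), while Rrp1b (3.21), Wdr12 (3.75) and Polr1a (4.19) were the least.

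Many assembly factors outside the 46 also rose. Of 46 other small-subunit factors 20 rose and none fell (median 0.17), among them the H/ACA protein gene Gar1 (0.77), Pwp2 (0.63) and Nol10 (0.56). Of 55 other large-subunit factors 24 rose and 5 fell (median 0.17). The GTPase gene Gtpbp4 rose by 0.54, Ebna1bp2 by 0.37 and Nle1 by 0.52, whereas Rrp8 (-0.30), Gltscr2 (-0.29) and Nsa2 (-0.24) fell. Those 3 calls ended with the replicate block, and the edgeR, DESeq2 or limma adjusted p ran over all alternatives from 0.0019 to 0.225 for Rrp8, 0.00048 to 0.084 for Gltscr2 and 0.00115 to 0.11 for Nsa2. Of 17 further genes of the Pol I apparatus 4 rose (23.5%) and 2 fell (11.8%), with a median of 0.09, so that the share that rose was close to the 23.8% of all tested genes. Rrn3, the factor that makes Pol I competent to start, rose by 0.33, Kdm2b by 0.22 and Top1 by 0.23, the calls of Kdm2b and Top1 ending with the replicate block (edgeR adjusted p = 0.186 and 0.118, the highest of ranges that began at 0.000414 and 0.00203). In the same list the termination factor gene Ttf1 (-0.25) and Taf1c (-0.33) fell, both calls ending without CKO replicate 6 (edgeR adjusted p = 0.0893 and 0.104) and without CKO replicate 7 (0.0573 and 0.0591), in a range over all alternatives of 0.00418 to 0.133 and 0.00514 to 0.189. In the Pol III apparatus the repressor gene Maf1 (-0.50) and Polr3gl (-0.25) fell, the Polr3gl call ending in 4 of 19 alternatives (edgeR, DESeq2 or limma adjusted p 0.00291 to 0.0931). The noncoding host genes of small nucleolar RNAs rose in 5 of 12 cases and fell in 0 (median 0.25), with Snhg5 (0.90), Snhg6 (0.61) and Snhg1 (0.51) leading.

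**Figure D4:**
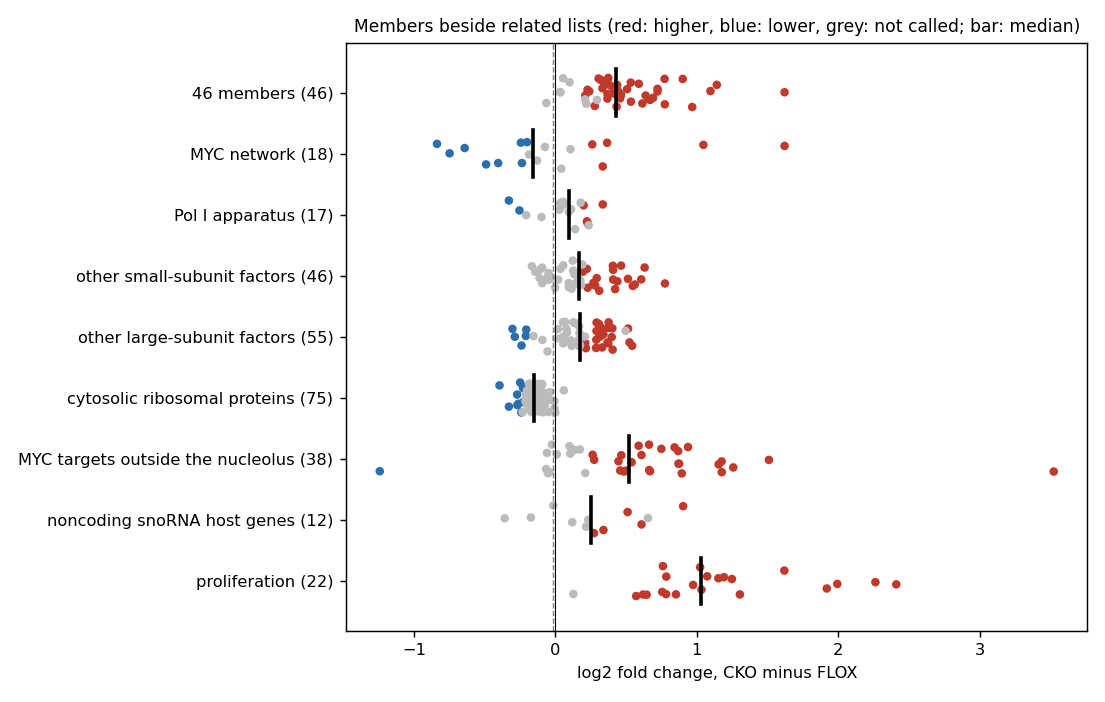
Log2 fold change (CKO minus FLOX) of each tested gene of the 46 members and of 8 related lists, with red for genes called higher, blue for lower and grey for not called; bars are medians and the dashed line is the median of all tested genes. The members' median is 0.43, that of other assembly factors near 0.17 and that of ribosomal proteins -0.15.

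Genes of the ribosomal proteins that these factors assemble were not called higher. Of 75 tested genes of cytosolic ribosomal proteins none rose, where 23.8% of all tested genes did, and 11 fell (median -0.15). The share that fell, 14.7%, was below the 21.6% of all tested genes. At an unadjusted p below 0.05 in edgeR 0 were higher and 18 lower, and DESeq2 called 0 higher and 12 lower. Rpl10 had a log2 fold change of -0.33, Rpl37a -0.40 and Rpl7a -0.24. The Rpl10 and Rpl7a calls ended with the replicate block and that of Rpl7a in 8 further alternatives (edgeR, DESeq2 or limma adjusted p 0.000156 to 0.0667 and 0.000367 to 0.18). The number that fell changed with single libraries. It was 40 without FLOX replicate 7 and 13 without FLOX replicate 4, but 2 without FLOX replicate 3, without FLOX replicate 6 or without any of CKO replicates 6, 7 and 8, 4 with upper-quartile factors, 2 with library totals and 1 with the replicate block. The summed CPM of the list was 52793 and 48032 in FLOX replicates 3 and 6 and 42613 and 39783 in FLOX replicates 4 and 7, against 39003 to 44010.1 in CKO. Many of these genes have processed pseudogenes, and pairs that align to several places were not counted. The row of the ribosomal RNA precursor, Rn45s, spread from 438 to 1767 CPM in FLOX and from 639 to 1296 CPM in CKO (edgeR log2 difference -0.20 with SE 0.46, adjusted p = 0.756). Its groups overlapped, and the interval of its fold (0.401 to 1.90) is wide. Whether RNA was selected by its poly(A) tail or depleted of ribosomal RNA, which sets how much of this row a library keeps, is not stated in the labels.

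**Figure D5:**
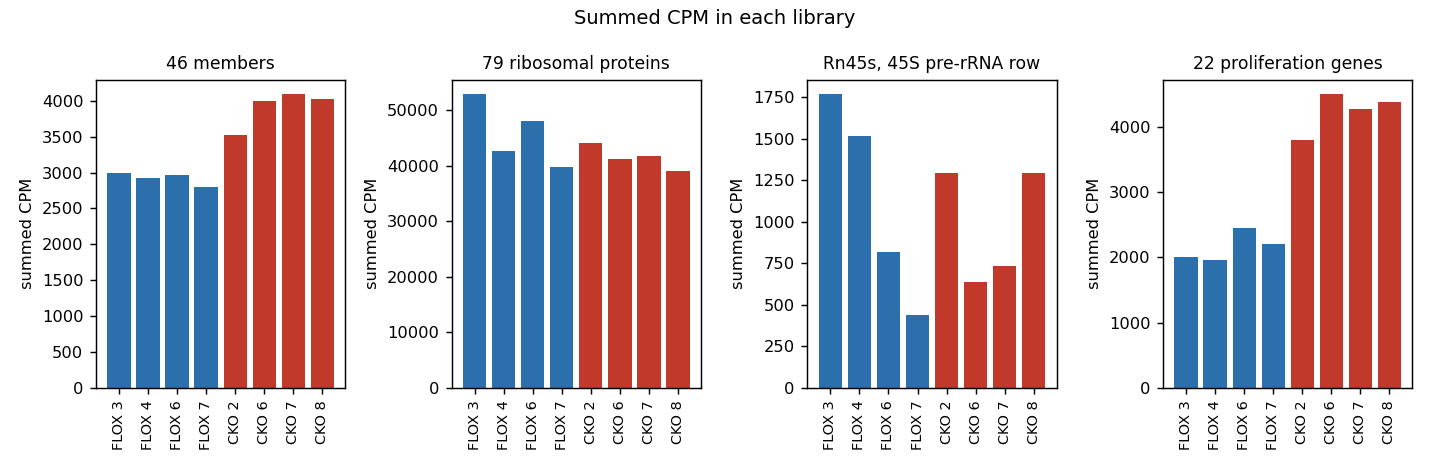
Summed CPM in each library (blue FLOX, red CKO; bars start at 0) of the 46 members, of 79 ribosomal protein genes, of the Rn45s row and of 22 proliferation genes. Members and proliferation genes are higher in all 4 CKO libraries, whereas the sums of ribosomal proteins and the Rn45s values overlap between groups.

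Other genes known as MYC targets, outside the nucleolus, largely rose. Of 38 tested 26 rose and 1 fell (median 0.52). Cyclin D2 (Ccnd2) rose by 3.52, the replication helicase subunit Mcm4 by 1.26 and spermidine synthase (Srm) by 1.18. The exception was the transferrin receptor gene Tfrc, at 740.4 ± 136 CPM in FLOX and lower, at 313 ± 32.3 CPM, in CKO (edgeR log2 difference -1.24 with SE 0.12, adjusted p = 8.62e-06). Of 9 genes known to be repressed by MYC 4 fell, led by Cdkn1c (-1.40), Gadd45b (-0.98) and Gadd45a (-0.77), and 1 rose, the cell cycle inhibitor gene Cdkn1a (1.06), with a median of -0.24. Cdkn1a also belongs to 14 genes of nucleolar stress and p53, of which 7 rose and 2 fell (median 0.25), with Mtbp at 1.14, Ccng1 at 0.40 and Sesn1 at -0.71. Of 22 genes of growth signalling upstream of MYC 8 rose (36.4%) and 5 fell (22.7%), with a median of -0.0026. Of all tested genes 23.8% rose and 21.6% fell, so the share that fell was close to that of all genes. Sesn2 (0.89) and Ddit4 (1.03), which encode inhibitors of mTORC1 signalling, and the kinase gene Map2k1 (0.42) rose, and the mTOR inhibitor genes Deptor (-0.72), Tsc1 (-0.45) and Akt1s1 (-0.41) fell.

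Proliferation genes, monocyte markers and neutrophil and precursor markers moved with the members. Of 22 proliferation genes 21 rose and none fell (median 1.03). Of all tested genes 23.8% rose and 21.6% fell, shares that also stand beside the marker counts below. The proliferation genes summed to 3807 to 4501 CPM in CKO and 1966 to 2450.3 CPM in FLOX, with CKO replicate 2 again the lowest of its group. The 6 monocyte markers, of which all 4 tested rose, summed to 75.5 to 92.8 CPM in CKO and 33.1 to 42.1 CPM in FLOX, most of it Ccr2 (72.8 and 33.5 CPM). The 10 neutrophil and precursor markers, 3 of 4 tested higher, summed to 4.68 to 10.5 and 1.99 to 3.44 CPM, mostly S100a9 and S100a8, with Elane and Retnlg at 0 counts in every library. Ngp (14 to 21 counts in CKO, 2 to 9 in FLOX) and Ltf (11 to 20 and 3 to 6) passed the count filter only through CKO. A gene that passes in this way can hardly be called lower, so these calls carry no weight. The 10 macrophage markers summed to 5687 to 6458 and 7072 to 7364 CPM, 4 lower and 1 higher. The part of these shifts in the rise of the members was not tested. Markers of dendritic cells (6 genes, 2.43 to 3.08 and 2.04 to 2.48 CPM), T and NK cells (7 genes, 0.593 to 1.23 and 1.56 to 2.38), B cells (5 genes, 1.35 to 1.91 and 0.497 to 1.24), fibroblasts (5 genes, 0.674 to 1.79 and 0.701 to 0.918), erythroid cells (6 genes, 0 to 0.264 and 0.0701 to 0.303) and mast cells and basophils (5 genes, 4.81 to 5.47 and 7.29 to 9.44) were low in sum in both groups.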

How the data were processed

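RNA of 8 BMDM libraries (4 CKO, 4 FLOX) was sequenced as read pairs. The submitters' processing notes name HISAT2 2.0.5, HTSeq and the build mm10. No source used here states the annotation or the use of strand. How pairs from exon bases shared by overlapping genes were counted is therefore not known (10 members share exon bases with a coding gene on the other strand). What the authors deposited are raw counts per gene symbol. HTSeq's unassigned classes (12.2% to 18.02% of pairs for low mapping quality, the largest) stayed out of library sizes and tests. Pairs assigned numbered 11764855 to 18939948, and libraries of a group differed beyond sampling noise (2.45 to 27.9 times the chi-square that noise gives per degree of freedom).

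Counts were tested in R 4.3.3 with edgeR 4.0.16: filterByExpr (minimum count 10, minimum total 15), TMM factors, robust dispersions and the quasi-likelihood F test of CKO against FLOX over 11519 genes, with Benjamini-Hochberg adjustment and calls at 0.05. The SE was taken as the log2 fold change divided by the root of F, with 95% intervals on 6 degrees of freedom. The p-values of the F test do not rest on those 6 alone, so an interval and a p-value can differ. For Heatr1 the interval of 0.983 to 1.36 includes 1, at an unadjusted p of 0.0484 in edgeR's quasi-likelihood F test. Alternatives were DESeq2 1.42.0, limma-voom (limma 3.58.1), other scalings and filters, the replicate block (a term for each replicate number) and left-out libraries. Positions and lengths are from GENCODE M21, and promoter windows from RefSeq.

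The members, their roles and all lists were chosen with earlier results of these data known. Named were Myc, Opa1, Lyz2 and every member; values in every library are given for Myc and the 3 members of smallest p in each role, and other lists are shown by at most 3 called genes a direction, ranked by p. Polr1c, Nhp2, Max, Adgre1, Csf1r, Ccr2, S100a8, S100a9, Elane, Retnlg and the pairs for ratios were chosen after values were seen.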

Additional observations from a re-analysis of the deposited data

Results flagged for a closer look

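In 8 of 94 groups of 4 libraries (46 members and Rn45s in CKO and in FLOX) 1 library lay far from the other 3 by Dixon's test at 95%, where chance gives about 5%. Wdr43 stood high in FLOX replicate 4, at 55.1 CPM beside 48.9 to 49.6 CPM in the other FLOX libraries. Polr1a stood low in CKO replicate 2, at 41.5 CPM beside 52.4 to 54.3 CPM in the other CKO libraries. Polr1b stood low in FLOX replicate 7, at 13.98 CPM beside 15.8 to 16.2 CPM in the other FLOX libraries. Utp20 stood low in CKO replicate 2, at 67.5 CPM beside 86.6 to 90.2 CPM in the other CKO libraries. Heatr1 stood low in CKO replicate 2, at 72.3 CPM beside 84.4 to 85.7 CPM in the other CKO libraries. Tcof1 stood high in FLOX replicate 6, at 102 CPM beside 85.3 to 86.9 CPM in the other FLOX libraries. Pno1 stood high in FLOX replicate 3, at 55.9 CPM beside 48.7 to 49.6 CPM in the other FLOX libraries. Ltv1 stood low in FLOX replicate 4, at 30.3 CPM beside 35.8 to 36.7 CPM in the other FLOX libraries. The 3 in CKO are all replicate 2 and all low.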

How the results depend on the processing

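The rise of Myc held in all 19 alternatives (log2 fold change 1.55 to 1.77), in which 36 to 41 members rose and 0 fell. Leaving out each library in turn gave 37 to 41 members higher, a median log2 fold change of members of 0.38 to 0.48 and a Myc value of 1.55 to 1.77. With library totals and no factors the members' median was 0.53 and the median of all tested genes moved from -0.02 to 0.08. Of the 38 members that rose, 34 kept the call in every alternative; Npm1, Nop14, Nop16 and Bop1 lost it in some. Leaving out FLOX replicates 4 and 7, chosen after seeing the data, ended those 4 calls and gave 71 ribosomal protein genes lower, against 2 without FLOX replicates 3 and 6 (1 higher), also chosen later. The lowest count of any member in a library was 135, so no member was near the floor of detection. Numbers 6 and 7 are shared by both groups, and the deviations of same-numbered libraries correlated at 0.14 and -0.07 over genes, so the numbers were not taken to pair the libraries. The replicate block gives each number its own term, so its CKO effect rests on replicates 6 and 7 alone. With the block 38 members rose, 36 of them also without it (Nop14 and Bop1 lost the call, Gnl3 and Nat10 gained it). Myc was then at 1.77, and 3503 of all genes were called in place of 5231. Directions of uncalled genes turned for Wdr3 (0.038 with library totals, 0.016 with the block), Pes1 (-0.015 without FLOX 4 and 7), Utp15 (-0.025 without FLOX 3 and 6), Polr1c (-0.014 to 0.082 over single left-out libraries, the lowest without FLOX replicate 7, and -0.060 without FLOX 4 and 7) and Rn45s (0.19 with the block, -0.47 to 0.10 over single left-out libraries, positive without FLOX replicate 3, and 0.020 without FLOX 3 and 6); the cause was not tested.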
